A study of Mus musculus with 8 samples.

Results

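The comparison of stroke brain at 72 h with stroke brain at 24 h was made within cell clusters of 3 single-cell RNA-seq libraries, out of 8 in the series. All 3 hold leukocytes of the brain parenchyma of adult male wild-type mice, given by the labels as C57BL/J, after transient middle cerebral artery occlusion (MCAO). The leukocytes carried CD45 but had not taken up a CD45 antibody that was put into the blood shortly before perfusion. There were 2 libraries at 24 h (called replicates 1 and 2) and 1 library at 72 h. No gene was deleted and no drug was given as a treatment in any group, and a control brain library without stroke serves here as the background. The study's methods call the control mice of the single-cell data naive, while its figure legend calls them sham. If they were naive, a comparison with the control also carries the surgery and the anesthesia. The study pooled repeated experiments for each tissue, and how many mice went into each of these libraries, how the libraries map to the experiments and how long the occlusion lasted in each are not given in the sources used here.

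Clusters carry the names that the authors gave them: CNS-associated macrophages (CAM_1, CAM_2), granulocytes (Granulo_1, Granulo_2), macrophages (Macro_2), microglia (Micro_1, Micro_2, Micro_3) and T cells (Tc). A cluster was described when it held at least 30 annotated cells in each of the 3 libraries, which left 9 of the 21 clusters in the series. The stroke-associated myeloid cells (SAMC) entered only the mean of the other clusters. The 9 clusters hold 10694 of the 14099 annotated cells of these libraries and of the 32457 in the whole series, of which 4130 and 2389 came from the libraries at 24 h and 4175 from that at 72 h. In replicate 1 the smallest described cluster was Tc, with 33 cells. The second dendritic cell cluster lay just outside the limit, with 29 cells in replicate 1 and 46 and 168 in the other libraries, and the first had 22, 51 and 384 cells.

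After an ischemic stroke, the resident microglia of the brain respond within hours to dying neurons, while neutrophils and then monocytes enter from the blood. Monocytes mature into macrophages in the tissue, lose their early genes and take up lipid and debris. Such cells turn from releasing inflammatory cytokines to clearing dead tissue and remodelling matrix over days, and the set of genes that a cell carries is often read as its place on this path.

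UMIs (unique molecular identifiers, 1 for each captured transcript) were summed per gene, cluster and library, and levels are UMIs per 1000000 UMIs of the cluster in that library (CPM). The annotated cells held 8765296 and 6769521 UMIs at 24 h and 16202647 UMIs at 72 h. Both libraries at 24 h were made with version 2 and the library at 72 h with version 3 of the droplet kit, so time and kit cannot be told apart. Taking the other clusters as the reference removes only a kit effect that has the same log2 size in all of them. An effect of the kit that differs between clusters stays in the changes described below. The libraries at 24 h also stood apart from each other. Between 47.2% and 55.5% of the genes tested per cluster differed at least 2-fold between them, and between 8.92% and 49.0% still did after the mean of the other clusters had been subtracted. The summed level of 5 erythrocyte markers was 0 CPM in all 9 clusters of replicate 1, and it lay between 231 and 2237 CPM in replicate 2 and between 232 and 2009 CPM at 72 h. For these reasons a gene is described as changed only when 3 conditions were met. Its level differed at least 2-fold in the same direction against each library at 24 h, this log2 change went beyond the mean of the other clusters by at least 1 against each, and limma's test of the difference between the cluster and the mean of the others gave an adjusted p under 0.05. The single library at 72 h was assumed to vary like those at 24 h. The word difference below stands for this log2 change beyond the other clusters, with its standard error (SE). In sums of single cells, fewer cells with a gene and less RNA per cell cannot be told apart, and the number of cells with a UMI is given for many of the genes named.

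The genes that moved in most clusters were set aside in this way. Of 3426 genes tested in all described clusters, 38 were at least 2-fold higher and 3 at least 2-fold lower at 72 h against each library at 24 h in the mean over 10 clusters, SAMC included. None of them moved at least 2-fold in all 10 clusters against each library, in either direction. Apoe, a carrier of cholesterol and other lipids, was at least 2-fold higher against each library in 9 clusters, with mean log2 changes of 3.39 and 2.10 against replicates 1 and 2. Fabp5, which binds fatty acids, reached this in 8 clusters, with 4.66 and 2.33. Cd14, the co-receptor for bacterial lipopolysaccharide, was at least 2-fold lower against each library in 9 clusters, with -4.73 and -1.78. These values carry the kit as well as the time.

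Beyond this common shift, 132 of 62156 pairs of a cluster and a gene changed, 60 upward and 72 downward. CAM_1 held most of them. There 48 genes rose (0.662% of 7254 tested) and 27 fell (0.372%). In CAM_2, 2 genes rose (0.028% of 7145) and 7 fell (0.098%), and in Granulo_1, 1 rose (0.0125% of 7990) and 18 fell (0.225%). In Granulo_2, 1 gene rose and 1 fell (0.0198% of 5063 each way). In Macro_2, no gene rose (0%) and 11 fell (0.176% of 6260). In the microglia, 4 rose (0.0557% of 7176) and 2 fell (0.0279%) in Micro_1, 3 rose (0.0339% of 8854) and 4 fell (0.0452%) in Micro_2, and 1 rose (0.0133% of 7544) and 2 fell (0.0265%) in Micro_3. In Tc, none of 4870 genes rose or fell (0% each way). In the last case edgeR gave 14 genes with an unadjusted p under 0.05. The limma test alone called 173 pairs (0.278%), whereas the fold conditions without a test took in 1982 pairs (3.19%). Of the latter, CAM_1 held 227 upward and 348 downward and CAM_2 135 upward and 159 downward, so the 2 clusters lay closer together without the test. The SE in limma's test followed a gene's own spread more in CAM_2 than in CAM_1. edgeR's quasi-likelihood test of 72 h against 24 h within each cluster, which makes no use of the other clusters, called 6 pairs (0.00965%), with 784 at an unadjusted p under 0.05, and DESeq2 called 51. Both the 784 of 62156 pairs and the 14 of 4870 genes in Tc are fewer than would be expected at this cut if no gene changed. edgeR's 6 pairs were Chil3, Gpnmb and Fabp5 in CAM_1, Elane in Granulo_2 and Prss34 in Micro_3, all higher at 72 h, and Ccl17 in Macro_2, which was lower. Of the 132 changes, 116 had UMIs in at least 10 cells of each library on the higher side and 16 had not. The 132 changes fell on 120 genes, and 22 of the 132 were also called by edgeR in 1 joint fit over all clusters. CAM_1 held 9 of the 22, CAM_2 8, Micro_1 3, and Granulo_1 and Micro_2 1 each. In Granulo_2, Macro_2 and Micro_3 the joint fit called 0 of the changes.

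**Figure D1:**
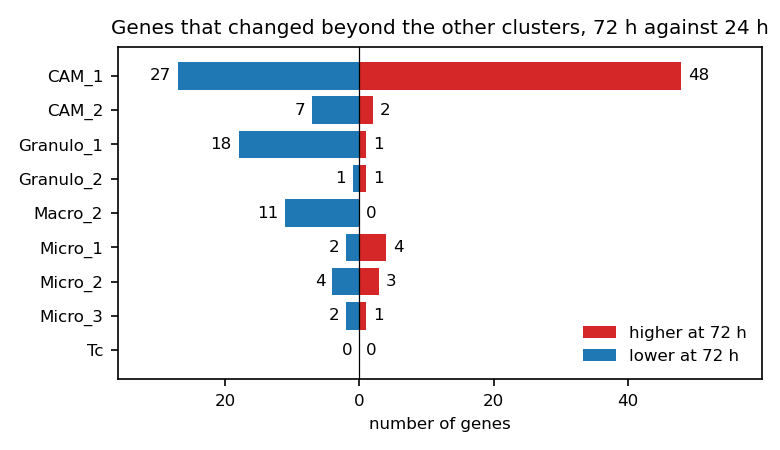
Number of genes that rose (right) and fell (left) at 72 h against 24 h in each of the 9 clusters, by the 3 conditions given in the text. CAM_1 has 48 rises and 27 falls, Granulo_1 and Macro_2 have 18 and 11 falls with 1 and 0 rises, and Tc has none.

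CAM_1 at 72 h carried more of several genes of monocytes and of lipid-laden macrophages than at 24 h, when some of them were almost absent. Chil3 (ENSMUSG00000040809), which encodes a chitinase-like protein made by monocytes and alternatively activated macrophages, had 6.00 and 8.32 CPM in replicates 1 and 2 at 24 h and 690 CPM at 72 h. The libraries at 24 h lay close together and far below that at 72 h, with UMIs in 8, 2 and 89 cells. The ratio to replicate 2, where 2 UMIs were counted, was 82.9 with a 95% counting interval from 22.8 to 687, and the difference was 4.96 (SE 0.65, limma adjusted p = 1.71e-10). Gpnmb (ENSMUSG00000029816), a membrane glycoprotein of lysosome-rich macrophages, went from 1 UMI in each library at 24 h (0.666 and 4.16 CPM) to 369 UMIs (771 CPM) in 92 cells. Its ratio to replicate 2 was 185 (counting interval 33.1 to 7339) and its difference was 4.43 (SE 0.69, limma adjusted p = 4.26e-07). Fabp5 had 7.33, 62.4 and 1843 CPM, a rise that exceeded its own rise in the other clusters by 3.12 (SE 0.60, limma adjusted p = 0.000128).

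Markers of blood monocytes rose with them. Ly6c2, which encodes the surface antigen of classical monocytes, had 0, 8.32 and 257 CPM, from 0, 2 and 123 UMIs. Ccr2, the receptor through which monocytes leave the bone marrow and follow CCL2, had 0.666, 12.5 and 226 CPM. Both were near 0 in the 2 libraries at 24 h, with differences of 3.74 and 3.80 (limma adjusted p = 0.000289 and 9.47e-05). Of 14 monocyte genes in the list used here, 11 passed the filter on low counts in CAM_1 and 8 of these rose, none fell, and the median difference was 2.90. Over all 7254 genes tested in this cluster the median was -0.13, and 48 rose. Genes of this list that were low at 24 h passed the filter through the library at 72 h. The other 6 members that rose were Chil3, Ms4a4c, Plac8, F13a1 (the A chain of clotting factor XIII), Gda (guanine deaminase) and Thbs1 (thrombospondin 1). Thbs1 and F13a1 did not share the near absence at 24 h. Thbs1 had 9.33 CPM in replicate 1 but 254 CPM in replicate 2 and 1133 CPM at 72 h, and F13a1 had 1.33, 91.5 and 230 CPM. Fn1, a member that did not meet all conditions, had 17.3, 262 and 886 CPM.

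Genes of matrix and repair rose in part. Of 16 such genes tested, 6 rose in CAM_1 and 1 fell, with a median difference of 2.34. Over all 7254 genes tested in this cluster the median was -0.13, and 48 rose and 27 fell. Members low at 24 h, such as Anxa1 (1, 1 and 36 UMIs) and Timp1 (0, 0 and 18 UMIs), passed the filter on low counts through the library at 72 h. Such members lift the median. Lgals1 (galectin 1, a lectin that dampens T cells and macrophages) had 91.3, 204 and 1854 CPM. Tgfbi, a matrix protein induced by TGF-beta, had 101, 275 and 1561 CPM. Both libraries at 24 h were several-fold below that at 72 h, and the differences were 2.25 (limma adjusted p = 0.0351) and 2.48 (limma adjusted p = 0.0148). The others were Anxa1 and Anxa2, calcium-dependent membrane binders, Ecm1 and Thbs1, which the monocyte list holds as well. The member that fell was Mmp12, the macrophage elastase, with 523 and 208 CPM at 24 h and 2.09 CPM, from 1 UMI, at 72 h. Its ratio to replicate 2 was 0.010 (counting interval 0.00025 to 0.0586) and its difference was -3.08 (limma adjusted p = 0.000184). The fall of Mmp12 was not confined to CAM_1. Without the test, it met the fold conditions downward in CAM_2 (1528, 212 and 3.28 CPM) and Micro_3 (142, 195 and 1.83 CPM). In Macro_2 it did not, with 493, 28.7 and 17.2 CPM. Arg1, which breaks down arginine and marks repair macrophages, had 2.66, 70.7 and 232 CPM in CAM_1 and passed the limma test (difference 2.42, adjusted p = 0.0242), but its change against replicate 2 did not go far enough beyond the other clusters. H2-Ab1, a chain of MHC class II, was the only one of 7 tested class II genes to meet all 3 conditions, with 32.0, 16.6 and 347 CPM (difference 2.48, limma adjusted p = 0.00983). It was not the only one that was higher. H2-Aa had 18.7, 16.6 and 290 CPM and met the fold conditions but not the test. H2-Eb1 had 6.00, 12.5 and 178 CPM and met neither the fold condition beyond the other clusters nor the test. Cd74, the invariant chain of the same pathway, had 498, 141 and 963 CPM and did not pass (limma adjusted p = 0.147). Ifitm3, which blocks the entry of viruses, was the only one of 16 tested interferon genes to rise, with 101, 150 and 1482 CPM (limma adjusted p = 0.0207).

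Among the genes that fell in CAM_1 were several that microglia carry. Cadm1 (ENSMUSG00000032076), a cell adhesion molecule, had 107 CPM in the control library, 97.3 and 104 CPM at 24 h and 2.09 CPM, from 1 UMI, at 72 h. Its UMIs came from 112 and 21 cells at 24 h and 1 cell at 72 h (difference -3.63, SE 0.66, limma adjusted p = 4.32e-05). Of 16 genes of homeostatic microglia, all tested, 2 fell, namely Fcrls, an Fc receptor-like scavenger receptor, and the nucleotide receptor P2ry13. Over all 7254 genes tested in CAM_1, 27 fell. With or without the test, 8 of the 16 met the fold conditions downward, as did 348 of all genes tested there. The median difference over the 16 genes was -1.51, against -0.13 for all genes tested. Fcrls had 2662, 1219 and 213 CPM (difference -2.47, limma adjusted p = 0.0411). The growth factor Csf1, on which microglia and macrophages depend for survival, had 332 and 724 CPM at 24 h and 35.5 CPM at 72 h (difference -2.50, limma adjusted p = 0.00741), and 28.8 CPM in the control library. Cd72, an inhibitory lectin, was also low without stroke, with 10.5 CPM in the control, 661 and 304 CPM at 24 h and 33.4 CPM at 72 h (difference -3.03, limma adjusted p = 0.000231). For both, the 2 libraries at 24 h lay above the control and the library at 72 h, whereas Cadm1 had about the same level in the control as at 24 h and Fcrls, with 1843 CPM in the control, lay between the values at 24 h. Nes, an intermediate filament gene, had 21 and 22 UMIs at 24 h (14 and 91.5 CPM) and none at 72 h, which is at least 2.23-fold lower when 3 UMIs are allowed for a count of 0. Hspb1, a small heat shock protein, had 47.3, 229 and 8.36 CPM (difference -3.43, limma adjusted p = 5.44e-05) and was the only one of 13 tested heat shock genes to fall. Lag3, Gpr84 and Edn1 fell too, Edn1 with UMIs in 26 and 9 cells at 24 h and 1 cell at 72 h.

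Summed levels of cell type markers moved with these genes in CAM_1, but they are not a separate readout. The monocyte markers Ly6c2, Ccr2, Plac8, F13a1 and Chil3 and the macrophage markers Lyz2, Pf4 and Ms4a7 are themselves among the genes that rose. The summed level of 6 microglia markers was 23169 CPM in the control library, 10147 and 3762 CPM at 24 h and 1429 CPM at 72 h, with all 6 above 0 in each library. That of 6 macrophage markers was 869, 4872 and 45853 CPM, and that of 6 monocyte markers 30.6, 387 and 2430 CPM, whereas neutrophil markers stayed between 111 and 308 CPM. The macrophage sum includes Apoe, which was set aside above as moving in most clusters. Its member Mrc1 was lower at 72 h than in replicate 2, with 2.00, 216 and 73.1 CPM. In replicate 1 at 24 h, CAM_1 thus held more of the microglia than of the macrophage markers, against its name. Within the cells of CAM_1, at least 2 UMIs of the monocyte genes were found in 9 of 648 and 14 of 165 cells at 24 h and in 144 of 212 cells at 72 h. Of the 144 cells, 28 also had at least 2 UMIs of 5 microglia genes and 81 had none. When each cell was thinned to 1000 UMIs, 2.80% and 18.4% of the cells at 24 h and 75.6% at 72 h kept a UMI of the monocyte genes (5.56%, 16.4% and 74.5% of all cells without thinning). The same genes were kept in 1.29%, 1.42% and 9.90% of Micro_1 cells, which should lack them. A UMI of the microglia genes was kept in 70.1%, 49.9% and 25.1% of CAM_1 cells, against 23.6%, 11.3% and 15.8% of Tc cells, with unthinned shares of 83.3%, 57.6% and 42.5% in CAM_1. Median UMIs per cell were 2150, 964 and 2134.5 in CAM_1, 1471, 805 and 1581.5 in Micro_1, and 1207, 1935 and 1314 in Tc. Whether a change in the kinds of cells that the cluster took in accounts for the changed genes was not tested.

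CAM_2 gained Arg1 and Spp1 and lost 7 genes, of which 3 (Cadm1, Csf1 and Cd72) also fell in CAM_1. Arg1 (ENSMUSG00000019987) had 4.16 and 17.7 CPM at 24 h, from 2 and 3 UMIs, and 280 CPM at 72 h, from 681 UMIs in 209 of 642 cells. Its ratio to replicate 2 was 15.8 with a counting interval from 5.39 to 76.9, and the difference was 3.90 (SE 0.72, limma adjusted p = 0.0499). Spp1 (ENSMUSG00000029304), which encodes osteopontin, a secreted phosphoprotein of wound and lipid-laden macrophages, had 713, 500 and 1778 CPM, against 5.09 CPM in the control library (difference 3.00, SE 0.46, limma adjusted p = 0.00746). Here the libraries at 24 h were already far above the control, and the library at 72 h was higher again. A UMI of Arg1 or Spp1 was kept in 39.6%, 27.8% and 61.8% of thinned cells (53.5%, 39.3% and 78.3% unthinned), against 33.4%, 12.7% and 6.15% in Tc, at median depths of 1536, 1189 and 3701.5 UMIs in CAM_2. The share in replicate 1 was thus close to that in Tc, whereas those in replicate 2 and at 72 h were above it. Chil3 and Fabp5, which rose in CAM_1, had 2.08, 165 and 671 CPM and 18.7, 1118 and 4708 CPM in CAM_2 and did not pass the test there (limma adjusted p = 1.00 for both).

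Among the falls in CAM_2, Cadm1 had 218, 212 and 4.93 CPM (difference -3.99, SE 0.54, limma adjusted p = 0.0042) and Csf1 had 220, 253 and 4.51 CPM (difference -3.91, limma adjusted p = 0.00623). The values at 24 h were close to each other, and those at 72 h were lower by more than an order of magnitude. As few as 14 and 16 cells of a library at 24 h held a UMI of Cadm1 and Csf1. Up to 58.3% and 48.8% of their UMIs in a library at 24 h lay in 3 cells. Sparc, a matrix-binding glycoprotein that microglia secrete, had 676, 477 and 43.1 CPM, and Gpr34, a lysophosphatidylserine receptor of microglia, had 324, 188 and 23.8 CPM. These were 2 of 16 tested genes of homeostatic microglia (median difference -1.35, against 0.13 for all 7145 genes tested in this cluster, of which 7 fell). Both were higher still in the control library, with 2214 and 1873 CPM. Ccl12, a ligand of CCR2, had 2183, 406 and 17.2 CPM (difference -3.19, limma adjusted p = 0.00685), the libraries at 24 h being several-fold apart. Pmp22, a membrane protein first known from myelin, and Cd72, with UMIs in 56, 9 and 19 cells, made up the 7. All changes in CAM_2 except Arg1 were also called in the joint edgeR fit, with adjusted p between 0.000142 and 0.00384. Microglia markers summed to 11007, 2926 and 1209 CPM and macrophage markers to 5525, 21868 and 64752 CPM in CAM_2, so that in replicate 1 it too held more of the microglia markers, against its name. The macrophage sum again includes Apoe, and its member Mrc1 had 2.08, 235 and 21.3 CPM. A UMI of the 5 microglia genes was kept in 64.8%, 36.3% and 22.4% of thinned cells. Their part in these falls was not tested.

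**Figure D2:**
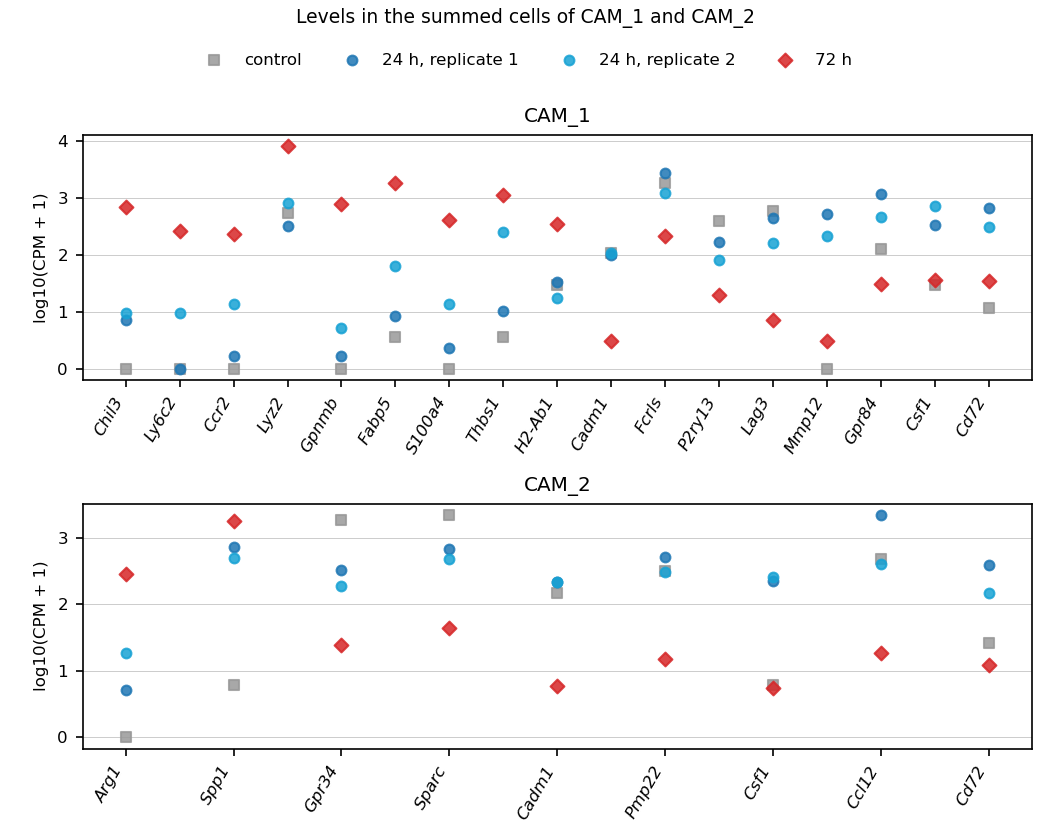
Levels of selected genes in CAM_1 and CAM_2 as log10(CPM + 1), with 1 point for each library (control, 24 h replicates 1 and 2, 72 h). Chil3 and Gpnmb sit near the bottom at 24 h and at 690 and 771 CPM at 72 h in CAM_1, while Cadm1 drops to 2.09 CPM in CAM_1 and 4.93 CPM in CAM_2.

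The cluster named Granulo_1 lost genes of neutrophils and gained Cx3cr1. Its markers went against its name in all 3 libraries. The monocyte markers summed to 9383, 10400 and 7637 CPM and the macrophage markers to 33199, 23801 and 31073 CPM, but the neutrophil markers to 2257, 4148 and 633 CPM, and the neutrophil receptor Cxcr2 had 0, 0.954 and 0.835 CPM. S100a8 (ENSMUSG00000056054), a subunit of the calcium-binding protein calprotectin of neutrophils and young monocytes, had 985, 2463 and 86.0 CPM. The library at 72 h was more than an order of magnitude below both at 24 h, with a difference of -4.98 (SE 0.48, limma adjusted p = 1.39e-21), and this change was also called in the joint edgeR fit (adjusted p = 7.87e-05). S100a8 had UMIs in at least 36 cells of each library at 24 h, but up to 53.1% of those in a library lay in 3 cells. Saa3, an acute phase protein, had 6585, 591 and 44.0 CPM (difference -5.13, SE 0.49, limma adjusted p = 2.11e-18), and here the libraries at 24 h were themselves more than 10-fold apart. Inhba, which encodes a chain of activin, had 127 and 23.8 CPM, from 40 and 25 UMIs, and 0.557 CPM, from 2 UMIs, at 72 h (ratio to replicate 2 0.0233, counting interval 0.00268 to 0.0936). These UMIs lay in 10, 4 and 2 cells, and 96% of those in replicate 2 came from 3 cells.

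Of 7990 genes tested in Granulo_1, 18 fell. From the list of 17 neutrophil genes, 11 passed the filter there and 6 fell, none rose, and the median difference was -2.86, against a median near 0 for all genes tested. Besides S100a8 these were Wfdc21, the decoy receptor for interleukin 1 Il1r2, Lrg1, the collagenase Mmp8 and the iron-binding lipocalin Lcn2. Members low at 72 h, such as Wfdc21 with 50, 212 and 22 UMIs, passed the filter through the libraries at 24 h. Il1r2 had 242, 116 and 21.4 CPM, and Lcn2 had 82.9, 618 and 31.5 CPM. Both were lowest at 72 h, but the order of the libraries at 24 h differed between them. S100a9, the partner of S100a8, had 31.9, 909 and 49.8 CPM, so that the value at 72 h lay between those at 24 h and the gene did not meet the fold condition. Csf3r, the receptor for the growth factor of granulocytes, had 54.2, 74.4 and 87.7 CPM (limma adjusted p = 1.00). A UMI of S100a8, S100a9 or Retnlg was kept in 25.4%, 28.2% and 6.26% of thinned cells (44.2%, 45.7% and 13.7% unthinned). In Tc the shares were 2.78%, 5.88% and 7.52%, so that the share in Granulo_1 at 72 h was at the background. A UMI of the monocyte genes Ly6c2, Ccr2 or Plac8 was kept in 72.3%, 80.7% and 83.7% of cells, and median depths were 3458.5, 5682.5 and 2705 UMIs. Most cells with at least 2 UMIs of the neutrophil genes also had at least 2 of the monocyte genes, namely 21 of 24, 58 of 61 and 31 of 37 cells.

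Spp1 fell in Granulo_1, with 7426, 2428 and 647 CPM (difference -2.23, limma adjusted p = 0.00112), in contrast to its rise in CAM_2. The survival genes Bcl2a1b and Bcl2a1d of the BCL2 family fell as well, with 727, 196 and 56.5 CPM for Bcl2a1b. Since Bcl2a1 copies are near-identical, their counts may have been split between them. Trem1, an activating receptor of neutrophils and monocytes, had 280, 169 and 67.4 CPM (difference -2.18, limma adjusted p = 0.00301). The single rise was that of Cx3cr1 (ENSMUSG00000052336), the fractalkine receptor of patrolling monocytes and microglia. It had 63.7 CPM in replicate 1, 170 CPM in replicate 2 and 379 CPM at 72 h, with UMIs in 16 of 86, 94 of 188 and 673 of 1315 cells (difference 1.82, SE 0.49, limma adjusted p = 0.0373). Per cell, the share with a UMI was thus about as high in replicate 2 as at 72 h, at a greater median depth. The summed microglia markers were low, between 303 and 535 CPM.

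Granulo_2 held neutrophil markers in all libraries (125577, 307585 and 209276 CPM summed). Of 17 neutrophil genes tested none changed there, where 1 gene rose and 1 fell among all 5063 tested. Elane (ENSMUSG00000020125), the neutrophil elastase that is stored in the azurophil granules of precursors in the bone marrow, had 0, 1 and 263 UMIs (0, 1.6 and 536 CPM). The UMIs at 72 h lay in 6 of 373 cells, 88.2% of them in 3 cells. The ratio to replicate 2 was 336 (counting interval 59.8 to 13322), and the difference was 6.35 (SE 1.48, limma adjusted p = 0.0475). Other genes of the same granules pointed to the same few cells. Mpo had 0, 0 and 155 CPM and Prtn3 had 18.6, 7.98 and 318 CPM, but neither passed the test (limma adjusted p = 1.00). At least 2 UMIs of these granule genes were found in 0, 1 and 5 cells, and all 5 also carried genes of the later, specific granules. In Tc, a UMI of the azurophil genes was kept in at most 0.199% of thinned cells, against 1.64%, 1.26% and 5.39% in Granulo_2, which rests on 13, 189 and 137 cells of at least 1000 UMIs. Wfdc17, an antimicrobial protease inhibitor, fell from 37437 and 2037 CPM to 255 CPM (difference -6.36, SE 0.85, limma adjusted p = 4.78e-10), although the gap between the libraries at 24 h was wider than that between replicate 2 and 72 h. Its UMIs were in 42 of 47, 92 of 202 and 66 of 373 cells.

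In Macro_2, all 11 changes were falls, and 4 of them were members of the list of cytokines and chemokines used here. The joint edgeR fit called none of the 11. Tnf, a central inflammatory cytokine, had 322 and 165 CPM at 24 h, 30.6 CPM at 72 h and 64.6 CPM in the control library. It was found in 19 of 56, 30 of 93 and 52 of 570 cells (difference -2.65, SE 0.58, limma adjusted p = 0.00491). Ccl2, the chief attractant of CCR2+ monocytes, had 1566, 196 and 63.3 CPM (difference -2.46, limma adjusted p = 0.0186), with UMIs in 24, 34 and 61 cells. Its relative Ccl7 had 720, 92.6 and 23.6 CPM in 15, 8 and 17 cells, and Cxcl1, which attracts neutrophils, had 139, 44.1 and 8.05 CPM but only in 2, 2 and 4 cells. For all 4, the library at 72 h was lowest and replicate 1 at 24 h was highest. Of 21 cytokines and chemokines, 18 were tested in Macro_2, where these 4 fell and none rose. With or without the test, 10 of the 18 met the fold conditions downward. Over all 6260 genes tested there, 56 met them downward and 46 upward. The fall of this list was not confined to Macro_2. In CAM_2, 7 of its 16 tested members met the fold conditions downward and 2 passed the test as well, against 159 downward of 7145 genes tested. The median difference of the 18 in Macro_2 was -2.06, against -0.02 for all genes tested. Members low at 72 h, such as Cxcl1, passed the filter on low counts through the libraries at 24 h. Cxcl2 was among the members of this list that missed the test, with 8614, 4065 and 502 CPM (limma adjusted p = 0.208), and Il1b met neither condition, with 1061, 628 and 447 CPM.

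Transcription of many cytokine genes is switched on through sites for the factor NF-kappa-B close to the start. Promoters were at hand for 2 of the 4 genes of the cytokine list that fell in Macro_2, and these are shown because the genes moved together. The sequences are RefSeq's (GRCm38.p6), from 250 bases before to 50 after the start of the gene on its own strand, and capitals mark matches to a form of the NF-kappa-B motif (GGG, any 2 bases, then TTTCC), searched on both strands.
Tnf, chr17:35201958-35202257, minus strand: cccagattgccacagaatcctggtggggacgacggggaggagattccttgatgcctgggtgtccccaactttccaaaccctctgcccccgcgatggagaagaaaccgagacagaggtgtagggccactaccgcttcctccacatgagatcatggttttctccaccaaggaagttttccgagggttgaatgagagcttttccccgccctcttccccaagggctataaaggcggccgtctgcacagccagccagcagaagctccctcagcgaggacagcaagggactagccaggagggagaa
Cxcl1, chr5:90890995-90891294, plus strand: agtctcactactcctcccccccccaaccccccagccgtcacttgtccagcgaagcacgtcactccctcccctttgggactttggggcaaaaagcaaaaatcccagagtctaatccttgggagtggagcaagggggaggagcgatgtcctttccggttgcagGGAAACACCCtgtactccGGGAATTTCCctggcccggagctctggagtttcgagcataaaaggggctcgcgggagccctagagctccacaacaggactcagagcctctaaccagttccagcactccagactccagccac
The Cxcl1 promoter holds 2 matches and that of Tnf none. Of all 32851 promoters of the same length, 535 (1.629%) hold the motif. A match is no proof of a site, and the lack of one says only that these letters are not in this window.

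The other 7 genes that fell in Macro_2 were Ccl17, Mgl2, F13a1, Ear2, Retnla, Gda and Mcub. Ccl17 encodes a chemokine too, but the list used here does not hold it. Ccl17 (ENSMUSG00000031780), an attractant of T cells made by mature dendritic cells, had 379 and 77.2 CPM at 24 h and 1.07 CPM, from 2 UMIs in 1 cell, at 72 h. Its ratio to replicate 2 was 0.0139 (counting interval 0.00162 to 0.0542) and its difference was -5.17 (SE 0.69, limma adjusted p = 6.07e-10), but at 24 h it was in 3 and 7 cells only. Mgl2, a C-type lectin of such dendritic cells and of tissue macrophages, had 171, 375 and 50.5 CPM in 10, 32 and 43 cells (difference -2.33, limma adjusted p = 0.0297). A UMI of Mgl2 or Ccl17 was kept in 17.6%, 21.7% and 3.94% of thinned cells (23.2%, 36.6% and 7.72% unthinned), and in none of the Tc cells, where 0 of 179 cells at 72 h allows a share of up to 1.68%. F13a1 had 120, 201 and 35.4 CPM (difference -3.59, limma adjusted p = 1.9e-06), and Ear2, a ribonuclease of the eosinophil family found in patrolling monocytes, had 145, 183 and 15 CPM in 7, 19 and 14 cells. Retnla, a marker of alternatively activated macrophages, had 796, 86.0 and 20.4 CPM, but it was in 3, 2 and 3 cells only. Genes of the cross-presenting dendritic cells were higher at 72 h without passing the test. Xcr1 had 0, 4.41 and 25.8 CPM and Itgae had 0, 4.41 and 37.6 CPM (limma adjusted p = 1.00 for both). A UMI of Xcr1 or Clec9a was kept in 0 of 55 cells in replicate 1, which allows a share of up to 5.45%, and in 1.19% and 3.06% of cells in replicate 2 and at 72 h. Dendritic cell markers summed to 392, 430 and 1054 CPM in this cluster, macrophage markers to 17279, 13977 and 13428 CPM, and median depths were 2859, 4790 and 3110 UMIs. The part of these cells in the falls was not tested.

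**Figure D3:**
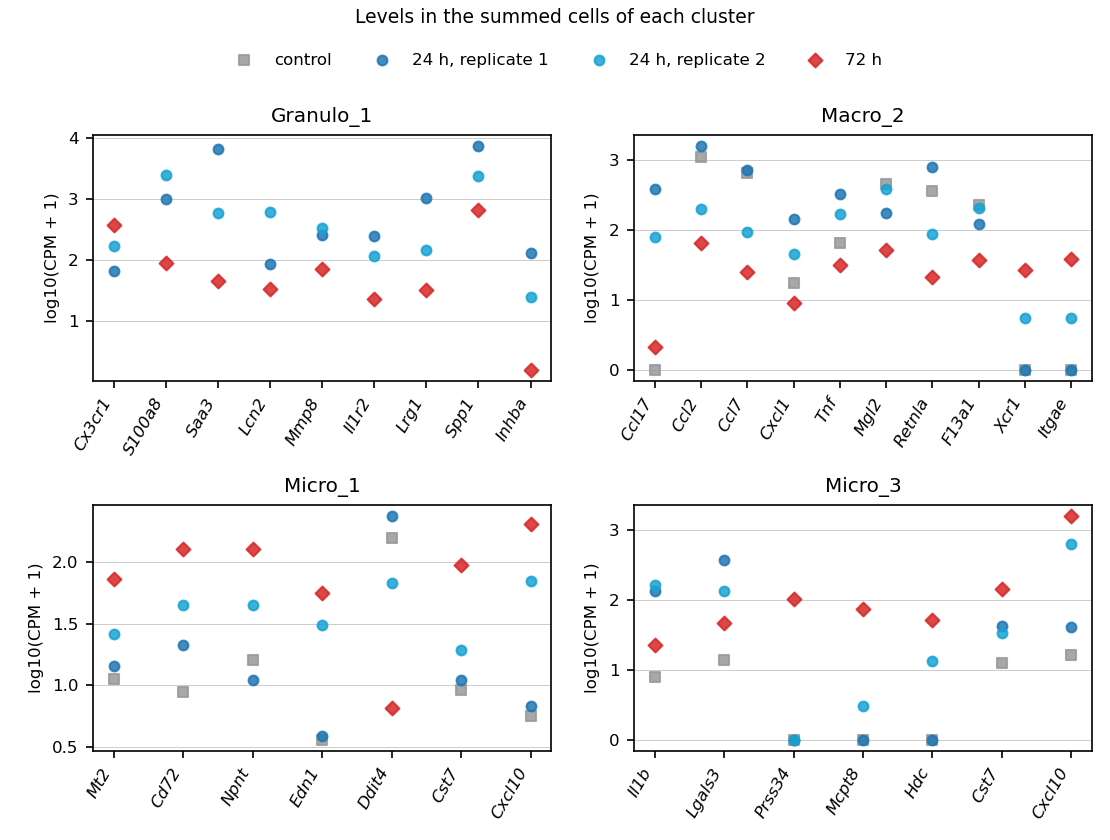
Levels of selected genes in Granulo_1, Macro_2, Micro_1 and Micro_3 as log10(CPM + 1), with 1 point for each library. The control library is left out for Granulo_1, which held 5 cells there, and the points at 72 h lie below both points at 24 h for S100a8, Saa3, Tnf and Ccl2 and above them for Cx3cr1 in Granulo_1 and Npnt in Micro_1.

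In the 3 microglia clusters few genes passed the test, but without it 46, 35 and 68 genes in Micro_1, Micro_2 and Micro_3 met both fold conditions upward and 166, 207 and 144 downward. These are out of 7176, 8854 and 7544 genes tested, whose median differences were -0.22, -0.23 and -0.16. The library at 72 h held the fewest UMIs in Micro_1 and Micro_2 (358640 and 559990), and the part of depth in these falls was not tested. Microglia markers were high in every library of these clusters, with sums of 25346, 9541 and 9823 CPM in Micro_1 and 14059, 6235 and 7642 CPM in Micro_3. Ddit4 (ENSMUSG00000020108), an inhibitor of mTOR signalling that is induced by hypoxia, glucocorticoids and stress, fell in Micro_1 and Micro_2. It had 237, 66.6 and 5.58 CPM in Micro_1, with UMIs in 374, 26 and 2 cells (difference -3.45, SE 0.60, limma adjusted p = 4.26e-05). In Micro_2 it had 270, 42.4 and 5.36 CPM (difference -3.38, limma adjusted p = 2.08e-05). At 158 and 172 CPM, the control library was closer to the libraries at 24 h than to that at 72 h in both clusters. Micro_3 did not share the fall, with 109, 38.5 and 33.0 CPM (limma adjusted p = 0.970), although the difference between clusters was tested only against the mean of all others.

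Npnt (nephronectin, a matrix ligand of integrins) rose in the same 2 clusters. It had 10.1, 43.6 and 128 CPM in Micro_1 (difference 2.67, limma adjusted p = 0.0188) and 5.99, 36.1 and 102 CPM in Micro_2 (difference 2.77, limma adjusted p = 0.00794), and both changes were also called in the joint edgeR fit. The libraries at 24 h were several-fold apart but both below 72 h. In Micro_3, Npnt had 11.1, 58.8 and 117 CPM and missed the threshold (limma adjusted p = 0.0547). Mt2 (metallothionein 2, which binds zinc and copper) rose in Micro_1, with 13.4, 25.3 and 72.5 CPM (difference 3.51, SE 0.65, limma adjusted p = 0.000194), as did Cd72, with 20.1, 43.6 and 128 CPM (difference 3.10, limma adjusted p = 0.000563). Edn1, the vasoconstrictor endothelin 1, rose from 2.87 and 29.8 to 55.8 CPM. These are small counts, as the 72 h values of the 3 genes rest on 26, 46 and 20 UMIs. Lpl, a lipase of lipid-handling microglia, and Csf1 passed the limma test in Micro_1 but did not reach 2-fold against replicate 2, with 23.9, 89.5 and 139 CPM for Lpl (difference 3.80, limma adjusted p = 1.78e-06) and 46.9, 186 and 243 CPM for Csf1 (difference 2.92, limma adjusted p = 0.00326).

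In Micro_2, the immediate early transcription factor Egr3 rose from 3.27 and 49.8 to 236 CPM (difference 2.83, limma adjusted p = 0.00256), and the interferon-induced chemokine Cxcl10 from 7.63 and 96.5 to 266 CPM (difference 2.28, limma adjusted p = 0.0337). Cxcl10 lost its call when libraries were weighted by depth (adjusted p = 0.0812), and so did Nudt6, Ltv1 and Pithd1, the 3 falls other than Ddit4, with adjusted p between 0.102 and 0.146. The library at 72 h was the shallowest in this cluster in the number of cells, 405 against 1116 and 816.

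In Micro_3, Il1b fell and Prss34 rose. Il1b, which encodes the cytokine interleukin 1 beta, had 133, 162 and 22 CPM, in 33, 20 and 9 cells, and 6.96 CPM in the control library (difference -2.71, SE 0.38, limma adjusted p = 0.0102). The value at 72 h was several-fold below both at 24 h, where 47.0% and 68.8% of the UMIs lay in 3 cells of each library. Lgals3 (galectin 3, a lectin of activated microglia and macrophages) had 368, 132 and 45.8 CPM against 12.8 CPM in the control (difference -2.48, limma adjusted p = 0.0212). Prss34 (ENSMUSG00000056399), a protease of basophils, had no UMI at 24 h and 56 UMIs (103 CPM) at 72 h, which is at least 16.9-fold higher when 3 UMIs are allowed for the count of 0 in replicate 2, the shallower of the libraries at 24 h in this cluster (limma adjusted p = 0.0418). All 56 UMIs came from 2 cells. Together with Mcpt8, Hdc, Gata2, Cpa3 and Ms4a2, other genes of basophils and mast cells, at least 2 UMIs were found in 0 of 469, 3 of 283 and 6 of 203 cells. None of the 6 cells had a UMI of the microglia genes P2ry12, Tmem119, Sall1, Siglech or Gpr34, while 174 of the 203 cells had at least 2. In Tc, at most 0.503% of thinned cells kept a UMI of the basophil genes.

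No gene in Tc met all 3 conditions, and without the test 21 genes met both fold conditions upward and 11 downward. Of 16 effector genes tested in Tc, none changed, and of 11 genes of resting lymphocytes, none did. Ifng, the main cytokine of type 1 T cells, had 89.4, 269 and 339 CPM, and the granule protease Gzmb had 671, 39.5 and 106 CPM (limma adjusted p = 1.00 for both). Tc held only 33 cells in replicate 1, with 44931 UMIs, so that 1 UMI there is worth more than 20 CPM.

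**Figure D4:**
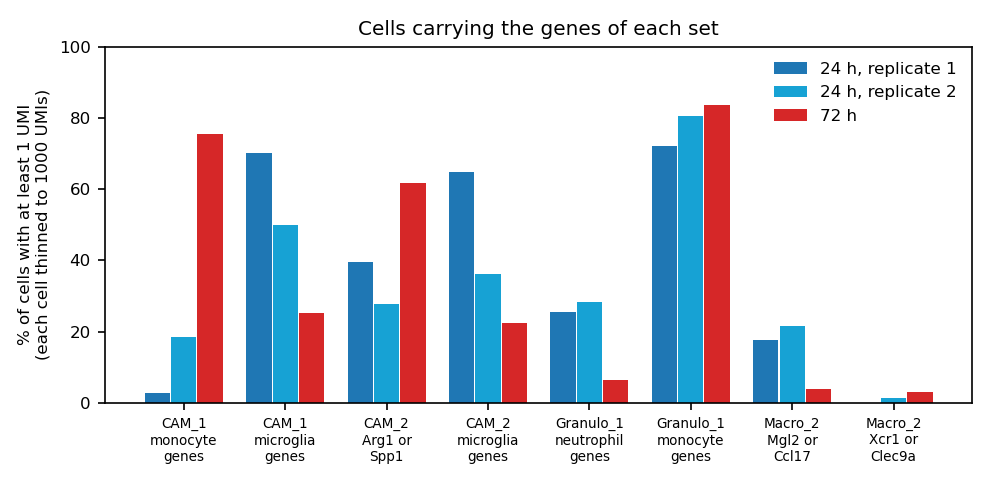
Percent of cells that keep at least 1 UMI of a set of genes when each cell is thinned to 1000 UMIs (expected value, cells below that depth left out), by cluster and library, on an axis from 0 to 100%. The share with monocyte genes in CAM_1 goes from 2.80% and 18.4% at 24 h to 75.6% at 72 h, and the share with neutrophil genes in Granulo_1 from 25.4% and 28.2% to 6.26%.

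Among the members tested, several lists of genes had none that met all 3 conditions in any of the 9 clusters. Over all genes, only 132 of 62156 pairs met them, so an absence in lists of this size says little about the lists. These were the cell cycle (5 to 15 of 16 genes tested per cluster), MHC class I (10 to 12 of 12), glycolysis and hypoxia (13 to 18 of 19), feedback inhibitors of NF-kappa-B (11 to 15 of 15), immediate early genes (18 or 19 of 19, where Egr3 is not a member) and the respiratory chain (23 of 24). Without the test, 3 cell cycle genes met the fold conditions upward in Micro_1 and 3 in Micro_3, and in the other lists at most 2 did so in either direction in any cluster. The lists of lipid and damage-associated genes held 5 changes in all, namely Fabp5 and Gpnmb upward in CAM_1, Spp1 upward in CAM_2 and downward in Granulo_1, and Lgals3 downward in Micro_3, with list medians between -0.74 and 0.69 over the clusters. Interferon genes had a median of -2.29 in Granulo_2 but none of the 12 tested there changed. Among complement genes, only Cfp, which encodes properdin, changed, and it rose in CAM_1 with 2.66, 12.5 and 102 CPM (limma adjusted p = 0.00873). Mt2 in Micro_1 was the only change among iron and oxidant defence genes. Without the test, Mt2 met the fold conditions downward in CAM_1, with 238, 146 and 20.9 CPM. It also did so in CAM_2 (264, 118 and 8.21 CPM) and in Macro_2 (196, 52.9 and 11.3 CPM). Its difference in Micro_1 thus holds the falls elsewhere as well as its own rise.

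Of the 120 genes, 11 changed in more than 1 cluster. In 4 of these the direction was shared, namely Cadm1 and Csf1 downward in CAM_1 and CAM_2, and Ddit4 downward and Npnt upward in Micro_1 and Micro_2. In 7 the directions were opposite. Cd72 fell in CAM_1 and CAM_2, by mean log2 changes of -3.51 and -3.81, and rose in Micro_1, by 2.00. Edn1 fell in CAM_1 (-3.38) and rose in Micro_1 (2.18). Spp1 rose in CAM_2 (1.97) and fell in Granulo_1 (-2.73), and Wfdc17 rose in CAM_1 (3.43) and fell in Granulo_2 (-5.29). F13a1 and Gda rose in CAM_1 and fell in Macro_2, and AA467197 rose in CAM_1 and fell in Granulo_1. Since each value is taken relative to the other clusters, a large change in 1 cluster adds a small opposite amount to the rest, but the fold conditions on the cluster's own levels were met in both directions for all 7.

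**Figure D5:**
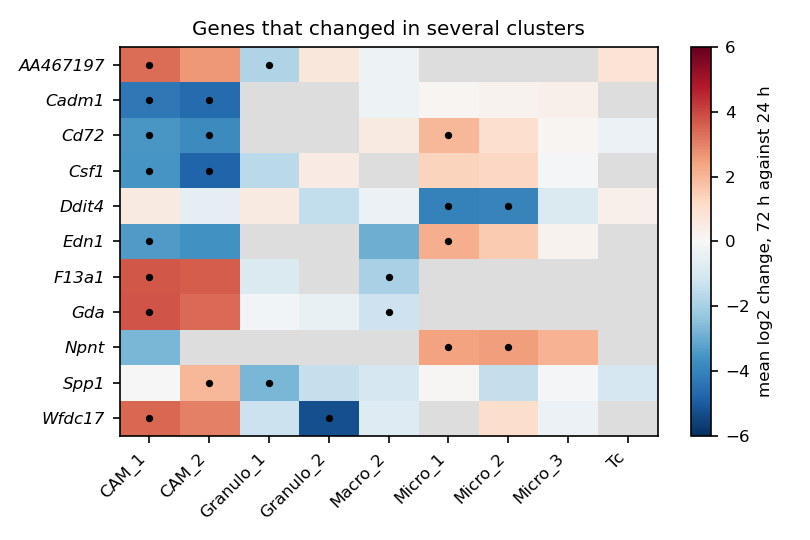
Mean log2 change of 72 h against the 2 libraries at 24 h, before the other clusters are subtracted, for the 11 genes that changed in more than 1 cluster (rows) in each cluster (columns). Grey marks pairs that were not tested, and Cd72, Edn1, Spp1 and Wfdc17 show both signs, such as -3.81 in CAM_2 and 2.00 in Micro_1 for Cd72.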

How the data were processed

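The deposited values are raw counts of UMIs for every gene and barcode, which the authors made with Cell Ranger 6.0 on mm10 according to the submitters' processing notes. Clusters were taken from the authors' annotation table, made with Seurat after they had filtered cells on genes and mitochondrial share and removed doublets with scDblFinder. The deposited UMAP coordinates, scores that the authors drew from Harmony components, were not used. Barcodes that the annotation leaves out were not used.

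Genes were matched by Ensembl identifier (30406 shared, 597 with another symbol in the 2 gene lists). Replicate 2 at 24 h and the library at 72 h have one list (31053 genes), replicate 1 and the control the other (32285). UMIs were summed per library and cluster. Of the cell barcodes, 0, 2 and 8 were shared by pairs of the 3 libraries. Each cluster was tested with edgeR 4.0.16 (robust glmQLFit and glmQLFTest, TMM scaling, genes kept by filterByExpr) and with limma 3.58.1 (trend, robust) on the log2 CPM of the cluster (prior count 2) minus the mean of the other 9 clusters, with Benjamini-Hochberg adjustment within a cluster, in R 4.3.3. With 2 libraries against 1, both tests have a single residual degree of freedom beside the spread shared across genes. The sources used here do not say how the libraries map to the study's repeated experiments, so the spread between the libraries at 24 h may be technical. In CAM_1 and for many genes elsewhere, the limma p-values rest mostly on that spread pooled over genes, not on a gene's own. In CAM_2, and for some genes of Granulo_1 and Macro_2, a gene's own spread weighed more. The SE was 2.24 for Ecm1 in CAM_2 (4.11 and 0.89 against replicates 1 and 2). It was 0.65 for F13a1 in CAM_1, where these values were 4.21 and 1.17. In Granulo_1 the SE was 0.48 for Chil3 (-3.54 and -2.54 against replicates 1 and 2) and 0.61 for S100a9 (-1.27 and -3.81). A small p-value thus does not mean that a gene's 2 libraries at 24 h lay close together. DESeq2 1.42.0, scaling by library size, no filter, other references for the common change, another prior count, at least 100 cells, thinning to 1000 UMIs, a joint fit and leaving out each library at 24 h were alternatives. Weights by depth, leaving SAMC out and the 3 combined conditions were chosen after seeing the data. Weights were added because limma gave false falls in simulated data where the library at 72 h was shallower.

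The members and gene lists were chosen with earlier results of these data known. Genes were named by rank (the 3 largest rises and falls per cluster among those changed) or as members of a list described. Genes outside this rule, such as Lag3, Gpr84, Trem1 and Lpl, were chosen after their values were seen. Counting intervals are exact at 95% and, like the 3 UMIs allowed for a count of 0, cover counting error only. Expected shares after thinning were computed from the hypergeometric distribution. Other steps used Python 3.11.15, numpy 2.4.6, pandas 2.3.3, scipy 1.17.1 and matplotlib 3.10.9.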

Additional observations from a re-analysis of the deposited data

How the results depend on the processing

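With libraries scaled by size alone, the limma test called 559 pairs instead of 173, and 346 instead of 132 met all conditions. Against the mean of other cell lineages only, these counts were 279 and 233, in the joint edgeR fit 96 and 73, and with weights by depth 273 and 201. With clusters of at least 100 cells 281 pairs met all conditions, and after thinning to 1000 UMIs per cell 55. Of the 132 pairs, 127 were shared with the weighted test, 124 with scaling by size, 122 with SAMC left out, 118 with other lineages as reference, 88 with a prior count of 0.5 and 22 with the joint fit. Of the 91 in clusters with at least 100 cells per library, 78 were shared, and of the 123 tested after thinning, 36. edgeR's 6 calls became 51 with DESeq2 (49 of them beyond the other clusters), 11 with scaling by size (11 beyond) and 0 without a filter on low counts, where the larger number of genes tested raises the adjusted p. The 1982 pairs without a test rose to 5792 without replicate 1 and to 10592 without replicate 2, since 1 condition fewer had to be met. Both libraries at 24 h thus limit this count, replicate 2 more than replicate 1. No pair changed direction under an alternative that gave it a value. The pairs had been selected for the same direction against each library at 24 h, so this outcome was largely fixed in advance. Of the 132 pairs in the joint fit, 110 lost their call, as did 86 of the 123 after thinning. No paired analysis was possible because 72 h has 1 library, and its label gives no replicate number that would pair it with a library at 24 h.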
